A study of Mus musculus with 10 samples.

Results

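The T-cell receptor alpha locus on mouse chromosome 14 supplied 93 of the 35375 rows of the count table: 33 variable (V) segments named Trav, 59 joining (J) segments named Traj, and the constant gene Trac. A row was taken when its Ensembl identifier carried a symbol of Trav or Traj followed by a digit, or Trac. The rows were then put in order by their place on the plus strand of GRCm38, with the V array at chr14:52427928-53977678, the J array at chr14:54155005-54218842 and Trac at chr14:54220521-54224206. Of the 128 annotated Trav segments, 95 had no row and were not analysed here, and of the 60 annotated Traj segments only Traj47 was missing. All 59 Traj rows, 31 Trav rows and Trac passed the filter on low counts. The 2 other Trav rows, the pseudogenes Trav4d-2 and Trav9n-1, reached at most 0.120 and 0.0545 CPM (counts relative to library depth, scaled by TMM) in any library and were not tested.

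The libraries were made from total RNA of the thymus, depleted of ribosomal RNA, from mice on the C57BL/6J background taken 3 days after birth. Usp7, the gene of the deubiquitinase USP7 (also called HAUSP), was deleted in the blood-forming system on both alleles (homozygous KO, n = 3) or on 1 allele (heterozygous KO, n = 3), and 4 mice were wild type for Usp7. The submitters' design counts 2 wild types with Cre induction and 2 without, but does not say which is which. The titles and column names split the wild types 2 and 2, replicates 1 and 2 with the word wt written 2 times and replicates 3 and 4 with it written 1 time and, in the column names, with het added, and whether this marks Cre is not stated. The promoter that drives the recombinase is not given in the sources used here. The titles give each library its own animal number, and no label says how the animals were related.

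A T-cell receptor alpha chain gene is assembled in double-positive (DP) thymocytes, when the RAG recombinase joins 1 Trav to 1 Traj segment and deletes what lay between. The first joins on an allele tend to pair V segments at the 3′ end of the V array with J segments at the 5′ end of the J array, which face each other across the delta genes. Later joins on the same allele replace the first with V segments further 5′ and J segments further 3′, and go on until a receptor is positively selected or the cell dies. Each array was divided by annotated order into 3 sections of near-equal number, and proximal therefore means the 3′ section of the Trav array (Trav8-1 to Trav21-dv12 among the rows) and the 5′ section of the Traj array, and distal the opposite ends.

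The J segments are short, from 29 to 72 bases with a median of 61, and most contain a conserved stretch that codes for phenylalanine, glycine, any residue and glycine. A search of the GENCODE M21 transcripts for any codons of this Phe-Gly-x-Gly motif, in all frames of the coding strand only, found 1 match in 42 of the 59 and none in the other 17. The sequences below show some of the proximal segments whose counts did not fall and the distal segments with the largest falls. The match is in capitals where there is one (GRCm38, plus strand).
Traj59: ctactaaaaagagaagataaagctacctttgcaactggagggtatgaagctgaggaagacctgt
Traj58: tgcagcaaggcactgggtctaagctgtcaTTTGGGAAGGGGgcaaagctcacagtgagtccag
Traj57: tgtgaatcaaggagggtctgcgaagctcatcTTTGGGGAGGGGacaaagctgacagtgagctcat
Traj12: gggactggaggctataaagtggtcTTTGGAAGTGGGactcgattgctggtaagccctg
Traj5: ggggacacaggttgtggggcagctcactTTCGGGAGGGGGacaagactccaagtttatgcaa
Traj3: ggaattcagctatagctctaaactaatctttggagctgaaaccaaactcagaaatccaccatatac
These lie at chr14:54156133-54156196 (Traj59), chr14:54157280-54157342 (Traj58), chr14:54158505-54158569 (Traj57), chr14:54206553-54206610 (Traj12), chr14:54213777-54213838 (Traj5) and chr14:54217292-54217357 (Traj3). In total RNA the reads of a J row can come from rearranged mRNA, from its unspliced precursor or from germline transcription, and the counts do not tell these apart.

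Usp7 itself was at 303, 422 and 408 CPM in homozygous KO, at 472, 516 and 516 CPM in heterozygous KO and at 676, 670, 594 and 589 CPM in wild type, so that the 3 groups did not overlap and followed the labels. Within wild type, the replicates with 1 wt word were the lower pair (594 and 589 CPM). Library totals were 92261908 to 122380785 counts in homozygous KO, 90479962 to 97407789 in heterozygous KO and 39833850 to 86366734 in wild type, and 3 counts corresponded to between 0.0260 and 0.0737 CPM. In homozygous KO against wild type, 2 of 6 pan T markers were called higher (summed levels of 3962 to 4240 against 3377 to 3622 CPM), and 4 of 4 B cell markers lower (6.28 to 8.91 against 28.8 to 45.8 CPM), with Ms4a1 at or near 0. Of the other lists, 2 of 5 myeloid markers were higher and 1 lower, 1 of 5 epithelial and 2 of 4 fibroblast markers were higher, and none of 3 endothelial or 4 erythroid markers was called. Beside these counts, 12.5% of all tested rows were called higher and 13.2% lower in the same comparison. The part of these cells in the results was not tested.

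In homozygous KO thymus, the V-proximal end of the J array held a larger share of its counts than in the other groups. The 5′ section of the array took 46.1%, 35.3% and 38.1% of all Traj counts in the 3 homozygous KO libraries, 23.1%, 26.7% and 25.5% in heterozygous KO and 23.3%, 20.9%, 21.8% and 22.9% in wild type. Every homozygous KO library was above every other library, with a mean share of 39.8% ± 5.57 (SD, n = 3) against 25.1% ± 1.82 (n = 3) and 22.2% ± 1.09 (n = 4). The 3′ section moved the other way, at 21.6% ± 2.68 in homozygous KO, 36.9% ± 0.61 in heterozygous KO and 38.6% ± 1.47 in wild type, while the middle section held means of 38.6%, 38.0% and 39.2% in the same order. Each library held 7224 to 21420 Traj counts, which fixed a share to within 0.565 to 1.13 percentage points (half-width of the 95% Wilson interval, counting error only). The animal numbers in the titles were divided here into 2 blocks, 44 to 51 and 56 to 63, which no label names as a batch. Within these blocks the share of the 5′ section was 24.1 points (1 library against 3) and 13.9 points (2 against 1) higher in homozygous KO than in wild type.

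**Figure D1:**
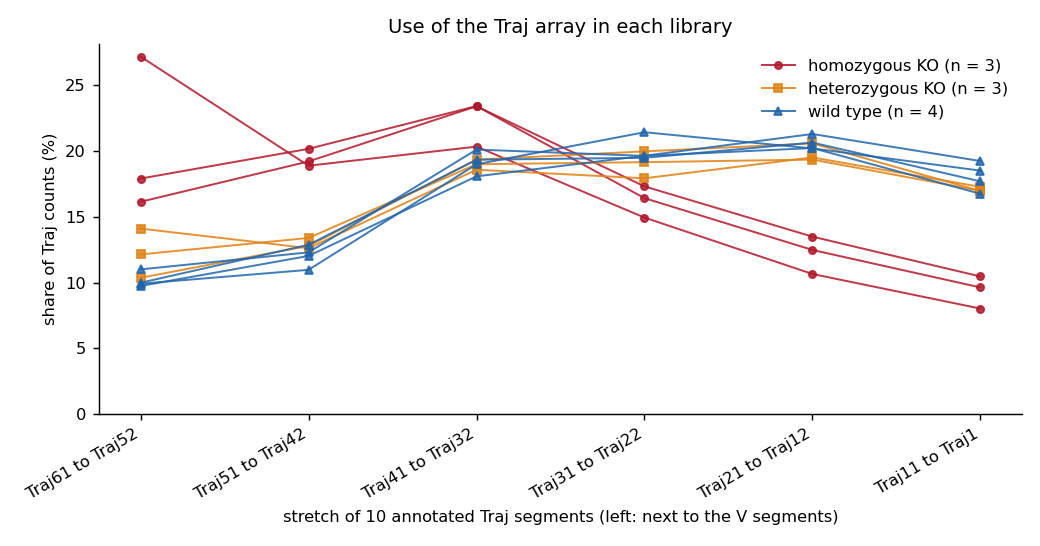
Share of all Traj counts (%, vertical axis) taken by each of 6 consecutive stretches of 10 annotated Traj segments (horizontal axis, V-proximal end at the left), 1 line per library. The homozygous KO mean is 20.4% in the first stretch and 9.37% in the last, and the wild-type mean 10.2% and 18.0%.

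Row by row, the fall began in the middle of the array and covered everything beyond it. Against wild type, edgeR's quasi-likelihood test over all 19511 tested rows called 24 Traj rows lower and 1 higher in homozygous KO, where 13.2% of all tested rows were called lower and 12.5% higher. The 24 were the 24 rows from Traj25 to Traj1 without a gap, and none of the 35 rows on the V side of Traj25 was called lower. With only the wild types of 1 wt word, 13 Traj rows in all were called, beside 2670 of 19855 tested rows in either direction. With all 10 libraries, 5030 of 19511 tested rows were called. By sections, 20 of 20 rows were lower in the 3′ section (median log2 fold change −1.45), 4 of 20 in the middle section (−0.56) and 0 of 19 in the 5′ section (0.17), beside a median of −0.01 over all tested rows. The CPM ranges of homozygous KO and wild type did not overlap for 28 Traj rows, all lower in homozygous KO, against 32.7% of all tested rows. The log2 fold change fell with the place of the segment from the V side to the Trac side, with a Spearman rho of −0.97 across 59 segments that share libraries and whose reads may overlap, which was not tested.

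**Figure D2:**
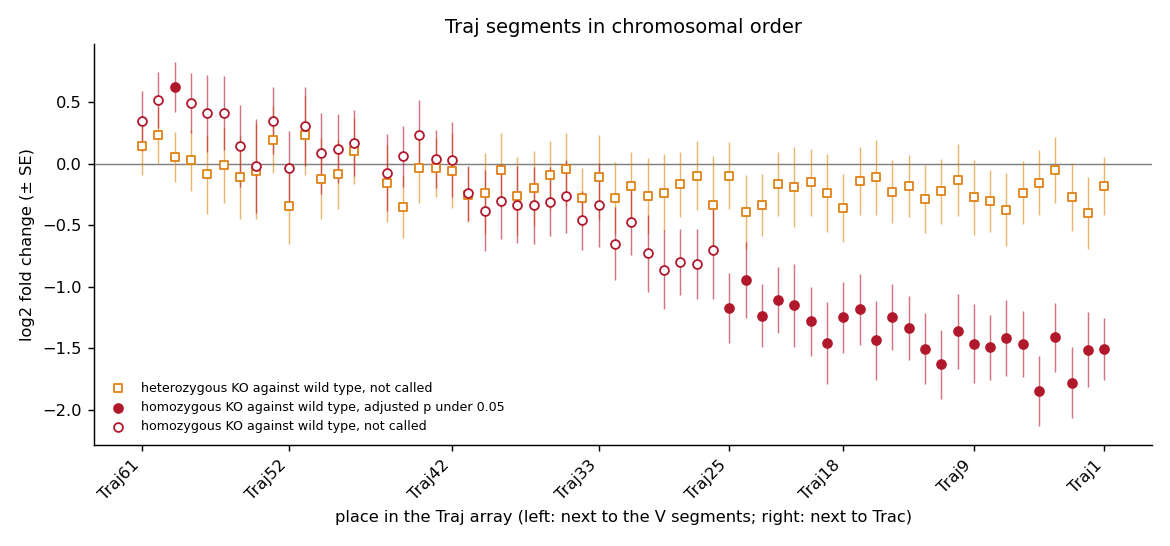
Log2 fold change (± SE, vertical axis) of the 59 Traj segments in chromosomal order (horizontal axis) for homozygous KO (circles) and heterozygous KO (squares) against wild type; filled symbols passed an adjusted p of 0.05. The last circle above 0 is Traj42, and the circles are all filled from Traj25 on and reach −1.85 at Traj5, while the squares stay between −0.40 and 0.23.

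The 5 largest falls among the J segments were all in the 3′ section, next to the constant gene. Traj5 was at 0.451, 0.606 and 0.610 CPM in homozygous KO, at 2.49, 1.17 and 1.74 CPM in heterozygous KO and at 2.06, 2.26, 1.54 and 2.18 CPM in wild type. The highest homozygous KO value was below the lowest of the other 7 libraries, and the log2 fold change against wild type was −1.85 (SE 0.29, adjusted p = 8.25e-04). Traj3 measured 0.798, 1.35 and 1.01 CPM in homozygous KO, 4.24, 2.08 and 2.66 CPM in heterozygous KO and 3.81, 3.97, 2.61 and 4.10 CPM in wild type (log2 fold change −1.78, SE 0.29, adjusted p = 0.00120). Traj12 measured 0.703, 1.31 and 1.23 CPM, then 3.93, 2.19 and 2.47 CPM, and 3.78, 3.20, 2.77 and 3.66 CPM in the same order of groups (−1.63, SE 0.28, adjusted p = 0.00153). Both were lower in every homozygous KO library than in any other library, as were Traj2 (−1.51, SE 0.31) and Traj1 (−1.51, SE 0.25), the segments nearest to Trac with Traj3.

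At the other end, of the 3 segments nearest to the V array 1 was called higher. Traj59 was at 4.82, 3.05 and 3.90 CPM in homozygous KO, at 2.85, 2.45 and 2.65 CPM in heterozygous KO and at 3.19, 2.31, 2.00 and 2.72 CPM in wild type. It was the single Traj row called higher in homozygous KO (log2 fold change 0.62, SE 0.20, adjusted p = 0.0430), with an overlap of 1 wild-type library, and it missed the threshold in 12 of 19 alternative settings. Traj60 and Traj61 had log2 fold changes of 0.52 (SE 0.23, adjusted p = 0.121) and 0.35 (SE 0.24, adjusted p = 0.326). Of the 19 rows in the 5′ section, 16 had a positive and 3 a negative log2 fold change, between −0.07 and 0.62. In summed CPM the 5′ section overlapped between groups (45.1 ± 3.80 in homozygous KO, 38.4 ± 8.37 in wild type), whereas the 3′ section did not (24.9 ± 6.14 against 66.4 ± 10.8).

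Scaling to the locus itself gave another split of the calls. When every library was scaled to its summed Trav, Traj and Trac counts, the median of all tested rows moved to 0.58, and homozygous KO had 15 Traj rows higher and 20 lower than wild type. All 15 were in the 5′ section and 19 of the 20 in the 3′ section. Of all 19511 tested rows, 11410 were called in either direction with this scaling. On this scale each fold change is one of share within the locus. Scaling to the summed CD3 genes left 0 Traj rows higher and 23 lower, beside 4633 of all 19511 tested rows called in either direction.

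Segments annotated as pseudogenes fell in the same section as J genes did. In the 3′ section the pseudogenes Traj14, Traj8 and Traj1 were all called lower, with a median log2 fold change of −1.49 beside −1.44 for the 17 J genes there. In the 5′ section 5 pseudogenes had a median of 0.30 and 14 J genes one of 0.15. The split by the searched motif gave the same order: in the 3′ section 6 of 6 segments without a match and 14 of 14 with 1 match were called lower (medians −1.48 and −1.43). These calls are for homozygous KO against wild type, where 13.2% of all tested rows were called lower.

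Traj18 and Traj33 have known partners in invariant receptors, Traj18 in invariant natural killer T cells, where it is joined to Trav11, and Traj33 in mucosal-associated invariant T cells, where it is joined to Trav1. Traj18, which lies within the stretch that fell, measured 1.06, 1.75 and 1.66 CPM in homozygous KO and 4.35, 3.68, 2.36 and 3.82 CPM in wild type (log2 fold change −1.25, SE 0.29, adjusted p = 0.00898), a call lost with only the wild types of 1 wt word (adjusted p = 0.0838). Traj33, from the middle section, measured 1.87, 2.73 and 2.57 CPM against 3.56, 2.70, 2.19 and 3.65 CPM, with overlapping groups (−0.34, SE 0.34, adjusted p = 0.508). Trav11 had no row and was not analysed here.

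In heterozygous KO no J segment passed the test against wild type. No Traj row was called in either direction by edgeR or by DESeq2, none had an unadjusted p under 0.05 and none had groups that did not overlap, where 0.0154% of all tested rows were called higher, 0% lower, and 8.69% did not overlap. The log2 fold changes ran from −0.40 to 0.23 with a median of −0.17, and 52 of 59 were below 0. The share of the 5′ section overlapped wild type by 1 library of each group (23.1% against 23.3%), and the other 2 heterozygous KO libraries were above all 4 wild types. Medians by stretch of 10 segments were 0.01, −0.06, −0.22, −0.21, −0.21 and −0.25 from the V side to Trac, against 0.38, 0.08, −0.34, −0.84, −1.31 and −1.48 in homozygous KO, and both sets of values use the same 4 wild-type libraries.

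Against heterozygous KO, homozygous KO again had lower counts at the Trac side of the array. The test called 21 Traj rows lower and 0 higher, beside 9.50% and 7.63% of all tested rows, and 23 did not overlap, beside 33.3%. All 21 lay between Traj25 and Traj1, where Traj24, Traj21 and Traj18 were not called. Traj5 (log2 fold change −1.70, SE 0.29), Traj3 (−1.51, SE 0.30), Traj12 (−1.41, SE 0.29), Traj4 (−1.36, SE 0.29) and Traj16 (−1.33, SE 0.34) had the largest falls among rows whose groups did not overlap. The Traj16 call was lost without homozygous KO replicate 1 (adjusted p = 0.0562) or 2 (0.0503) or heterozygous KO replicate 1 (0.0712). This count changed with the samples in the fit, and so did the calls over all rows (3342 of 19511 with all 10 libraries). It was 8 without heterozygous KO replicate 1, beside 2407 of 19878 tested rows called in either direction. That library had the highest summed Traj level of its group (214 CPM, against 108 and 137 CPM). The count was 9 without homozygous KO replicate 1 (2990 of 19958 tested rows called) and 10 in a fit of these 2 groups alone (2553 of 18858). Scaled to the locus, 9 Traj rows were higher and 14 lower, beside 8836 of all 19511 tested rows called in either direction.

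In the V array, the J-proximal end held a larger share of the counts in homozygous KO than in the other groups. The proximal section of the array took 90.3%, 91.8% and 93.7% of all Trav counts in the homozygous KO libraries, 72.8%, 73.4% and 75.3% in the heterozygous KO libraries, and 79.0%, 77.9%, 69.1% and 77.9% in wild type. All 3 homozygous KO libraries were above the other 7, with means of 92.0% ± 1.71, 73.8% ± 1.29 and 76.0% ± 4.62. The distal section fell to 2.66%, 1.59% and 1.28% in homozygous KO from 7.83%, 8.76% and 7.57% in heterozygous KO and 6.11%, 6.22%, 9.82% and 6.47% in wild type. The libraries held 2030 to 4746 Trav counts, and the half-widths of the Wilson intervals were 0.385 to 1.77 points. Within the 2 blocks of animal numbers, the proximal share was 15.0 and 14.9 points higher in homozygous KO than in wild type.

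**Figure D3:**
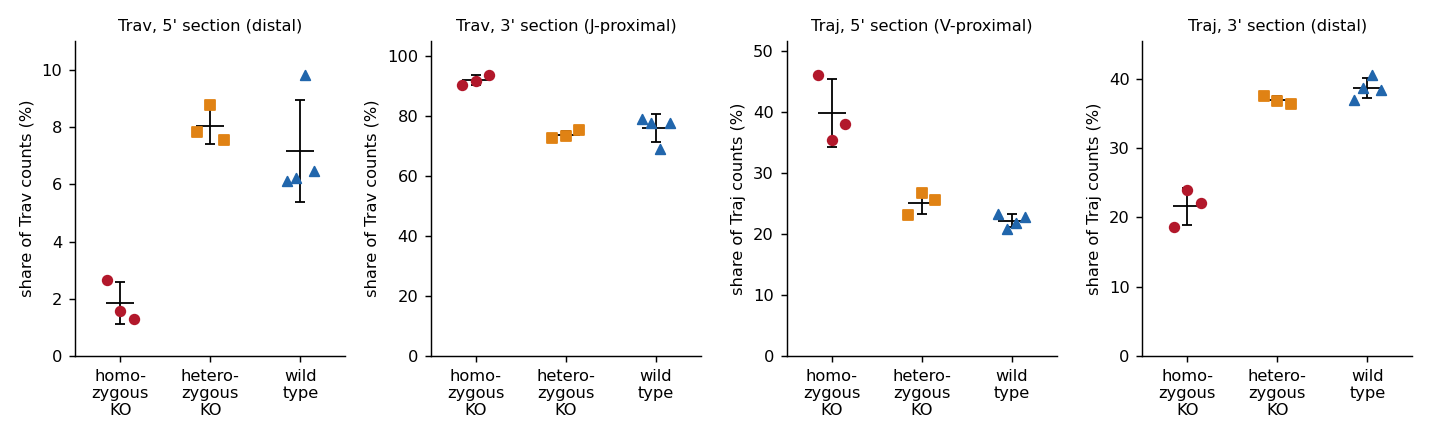
Share of the Trav or Traj counts of each library (%, vertical axis from 0) that fell in the outer sections of each array, by genotype (horizontal axis); points are libraries, and bars are the mean ± SD (n = 3, 3 and 4). In each of the 4 panels the homozygous KO libraries lie apart from the other 7, at 1.28% to 2.66% in the distal V section and at 35.3% to 46.1% in the V-proximal J section.

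Of the 31 tested Trav rows, 24 were called lower and 1 higher in homozygous KO against wild type (13.2% and 12.5% of all tested rows), and 26 had ranges that did not overlap (32.7% of all tested rows), 25 of them lower. By sections, 10 of 10 were lower in the distal section (median log2 fold change −3.37), 8 of 8 in the middle section (−2.07) and 6 of 13 in the proximal section (−0.61), which also held the 1 higher row. Across the 31 segments the log2 fold change rose with the place from 5′ to 3′, with a Spearman rho of 0.83 over segments that share libraries and, within families, near-identical sequence. The rise was not even: Trav8-1 in the proximal section, 751 kb from Trac, was at −3.79 (SE 0.64, adjusted p = 0.00153). Trav13d-1 in the distal section, 1369 kb away, was at −0.92 (SE 0.30, adjusted p = 0.0430). Scaled to the locus, 4 Trav rows were higher and 18 lower, the 4 all in the proximal section. With that scaling 11410 of all 19511 tested rows were called in either direction.

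**Figure D4:**
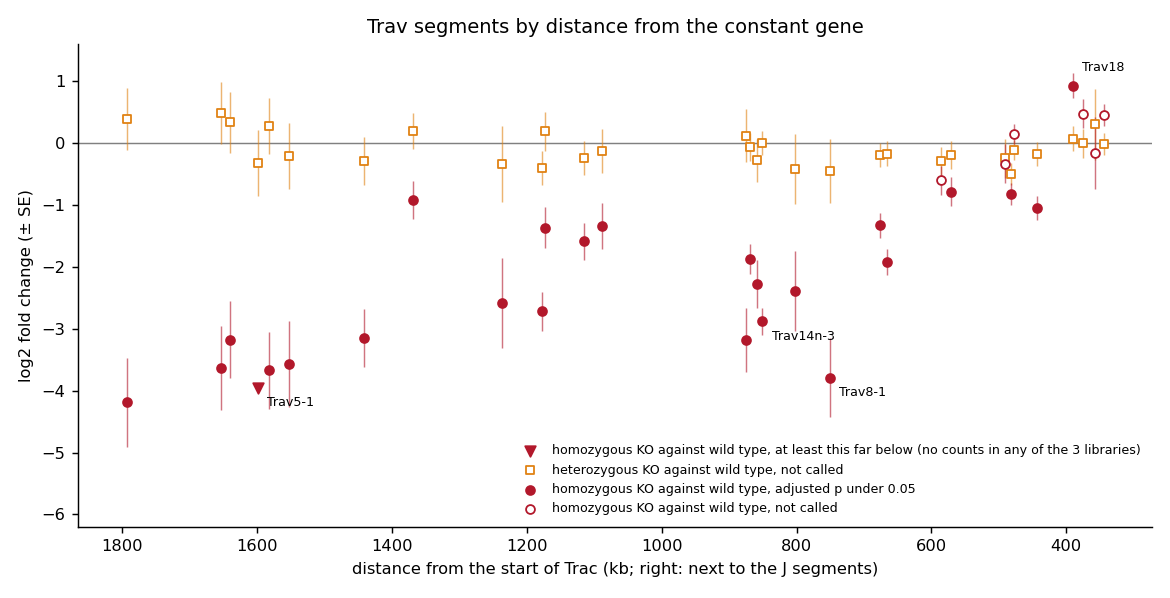
Log2 fold change (± SE, vertical axis) of the 31 tested Trav segments against their distance from the start of Trac (kb, horizontal axis, J-proximal end at the right). Homozygous KO (circles) and heterozygous KO (squares) are each compared with wild type, and filled symbols passed an adjusted p of 0.05. The triangle is Trav5-1 in homozygous KO, which was at least this far below wild type. The circles rise unevenly from the −4.19 of Trav1 at 1793 kb to the 0.93 of Trav18 at 389 kb. Trav8-1 at 751 kb is at −3.79 and Trav13d-1 at 1369 kb at −0.92. The squares stay between −0.50 and 0.49.

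The most distal V segments were almost absent from homozygous KO thymus. Trav1, the V segment furthest from the J array, had 3, 1 and 0 counts in the 3 homozygous KO libraries, and measured 0.230, 0.461 and 0.327 CPM in heterozygous KO and 0.147, 0.144, 0.326 and 0.375 CPM in wild type. Per unit of depth this was 21.8 times lower than wild type (exact 95% interval of the counts 8.16 to 82.2, which covers counting error only and not the spread between mice). The fitted log2 fold change of −4.19 became −5.28 without homozygous KO replicate 1. Trav2 had 1, 3 and 2 counts, 13.5 times lower than wild type (5.90 to 38.2, again counting error only). Trav5-1 had no count in any homozygous KO library, against 0.172, 0.409, 0.878 and 0.375 CPM in wild type and 0.440, 0.471 and 0.218 CPM in heterozygous KO. At a floor of 3 counts per library it was at least 15.5-fold lower than in wild type and at least 12.7-fold lower than in heterozygous KO. Trav3-1 was at 0.0607, 0 and 0.0443 CPM against 0.295, 0.265, 0.450 and 0.302 CPM in wild type (log2 fold change −3.18, SE 0.62, adjusted p = 0.00356, and −3.89 without homozygous KO replicate 1).

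Among V segments whose mean log2 CPM was not below 0, the 5 largest falls were those of Trav14n-3 and Trav16n in the middle section and of Trav14-1, Trav13-1 and Trav3-4 in the proximal section. Trav14n-3 was at 0.243, 0.362 and 0.255 CPM in homozygous KO, at 2.3996, 2.03 and 1.96 CPM in heterozygous KO and at 1.84, 2.21, 2.14 and 2.29 CPM in wild type. The other 7 libraries lay far above and close together, and the log2 fold change against wild type was −2.88 (SE 0.22, adjusted p = 7.50e-06). Trav14-1, a member of the same family that lies closer to the J array, was at 1.42, 2.22 and 1.45 CPM, then 7.02, 4.45 and 5.69 CPM, then 6.21, 6.38, 5.66 and 7.47 CPM (−1.92, SE 0.22, adjusted p = 9.97e-05). Trav16n (−1.87, SE 0.24), Trav13-1 (−1.33, SE 0.20) and Trav3-4 (−1.05, SE 0.20) completed the 5, each without overlap between homozygous KO and either other group. Scaled to the locus, Trav3-4 was at −0.44 and was no longer called.

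Near the J array 1 V segment rose. Trav18 was at 3.07, 3.78 and 2.64 CPM in homozygous KO, at 1.88, 1.82 and 1.52 CPM in heterozygous KO and at 2.19, 1.56, 1.44 and 1.49 CPM in wild type. It was above all other libraries in each homozygous KO mouse and was the single Trav row called higher, with a log2 fold change of 0.93 against wild type (SE 0.20, adjusted p = 0.00647) and 0.86 against heterozygous KO (SE 0.22, adjusted p = 0.0191). The call against wild type was lost with only the 2 wild types whose titles hold 2 wt words (adjusted p = 0.0658), and that against heterozygous KO without homozygous KO replicate 2 (0.0728) or without heterozygous KO replicate 2 (0.0506) or 3 (0.0846). Trav19 and Trav21-dv12 had log2 fold changes of 0.47 (SE 0.23, adjusted p = 0.164) and 0.45 (SE 0.18, adjusted p = 0.0890) and groups that overlapped, with 1 homozygous KO library below the wild-type range for Trav19 and 1 inside it for Trav21-dv12. The pseudogene Trav20 was at 0.0694 to 0.196 CPM in homozygous KO and 0.0982 to 0.289 CPM in wild type, and its log2 fold change of −0.17 (SE 0.59, adjusted p = 0.864) left differences of that size undetectable at this depth.

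Copies of the Trav16 family at different distances from the J array were set beside each other after their values had been seen, since they differ in place more than in sequence. The last 120 bases of the V exon are given, from the GENCODE M21 transcripts (GRCm38, plus strand), with bases that differ from Trav16 in capitals.
Trav16: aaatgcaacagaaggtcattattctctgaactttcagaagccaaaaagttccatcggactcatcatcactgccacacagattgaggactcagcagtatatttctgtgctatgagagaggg
Trav16n: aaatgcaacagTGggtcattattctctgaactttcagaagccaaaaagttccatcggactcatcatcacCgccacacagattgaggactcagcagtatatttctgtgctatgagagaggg
Trav16d-dv11: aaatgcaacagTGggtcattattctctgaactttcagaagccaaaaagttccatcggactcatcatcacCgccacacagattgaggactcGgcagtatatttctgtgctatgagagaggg
Trav16, Trav16n and Trav16d-dv11 lie 477, 869 and 1173 kb from Trac (chr14:53743104-53743705, chr14:53351028-53351621 and chr14:53047287-53047821), and over the last 270 bases the farther copies differ from Trav16 at 4 and 5 positions.

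Trav16 was at 4.96, 5.93 and 5.56 CPM in homozygous KO and at 3.95, 5.90, 4.75 and 5.20 CPM in wild type, and the groups overlapped (log2 fold change 0.15, SE 0.16, adjusted p = 0.540). Trav16n was at 0.590, 0.822 and 0.510 CPM against 1.74, 2.67, 2.75 and 2.21 CPM (−1.87, SE 0.24, adjusted p = 2.66e-04), and Trav16d-dv11 at 0.364, 0.372 and 0.288 CPM against 0.491, 0.842, 1.40 and 0.762 CPM (−1.37, SE 0.33, adjusted p = 0.0118). The copies farther away fell and the nearest did not pass the test, and the difference between copies was not tested. In the Trav8-2 family, set out in the same way, the nearest copy was called lower too (Trav8-2, a pseudogene, −0.82, SE 0.18, adjusted p = 0.00621). Its farther copies were at −3.19 (Trav8n-2, SE 0.51, adjusted p = 0.00112) and −2.72 (Trav8d-2, SE 0.31, adjusted p = 1.15e-04). Counts of such copies are uncertain: 21 of the 33 Trav rows have another annotated Trav at 95% identity or more, for 11 rows the nearest copy has no row, and how reads that match several copies were counted is not given in the sources used here.

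In the V array too, no row was called between heterozygous KO and wild type, 1 had an unadjusted p under 0.05, and only Trav8-1 had groups that did not overlap (0.720 to 0.948 CPM in heterozygous KO, 1.02 to 1.30 CPM in wild type). Of all tested rows, 0.0154% were called higher, 0% lower, and 8.69% did not overlap. The log2 fold changes ran from −0.50 to 0.49 with a median of −0.17, and by sections the medians were −0.01, −0.09 and −0.18 from 5′ to 3′. Distal segments had large standard errors, with log2 fold changes of 0.39 (SE 0.50) for Trav1 and 0.49 (SE 0.50) for Trav2, so that smaller differences were not detectable there.

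Against heterozygous KO, homozygous KO had 19 Trav rows lower and 1 higher, the latter Trav18, beside 9.50% and 7.63% of all tested rows, and 24 rows did not overlap, beside 33.3%. The falls comprised 9 of 10 tested rows in the distal section, 6 of 8 in the middle section and 4 of 13 in the proximal section, with medians of −3.43, −1.89 and −0.32. Trav14n-3 (log2 fold change −2.89, SE 0.23), Trav16n (−1.81, SE 0.25), Trav14-1 (−1.75, SE 0.22), Trav13-1 (−1.13, SE 0.21) and Trav3-4 (−0.87, SE 0.21) were the largest among rows whose mean log2 CPM was not below 0. The Trav3-4 call was lost with scaling to the locus (adjusted p = 0.276) and without homozygous KO replicate 3 (0.0539) or heterozygous KO replicate 2 (0.0532) or 3 (0.0577). Scaled to the locus, 4 were higher and 16 lower, beside 8836 of all 19511 tested rows called in either direction.

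Trac fell in homozygous KO against both other groups. Trac, the constant gene that every rearranged alpha mRNA carries, was at 85.8, 121 and 106 CPM in homozygous KO, at 137, 153 and 160 CPM in heterozygous KO and at 136, 155, 170 and 154 CPM in wild type. All homozygous KO values were below all others, with a log2 fold change of −0.56 against wild type (SE 0.11, adjusted p = 0.00353) and −0.53 against heterozygous KO (SE 0.12, adjusted p = 0.00970). An exact two-sided permutation test of Trac alone gave p = 0.0286 against wild type and p = 0.1 against heterozygous KO, the smallest values that these group sizes allow, and p = 0.714 for heterozygous KO against wild type. Summed Trav rows followed it, at 34.4 ± 5.87, 47.6 ± 2.15 and 52.4 ± 1.84 CPM, and the ratio of Trav to Trac counts was 0.305 to 0.366 in every library. Summed Traj rows overlapped between groups, at 115 ± 17.2, 153 ± 55.0 and 173 ± 32.6 CPM, and the ratio of Traj to Trac counts ranged from 0.702 to 1.57.

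**Figure D5:**
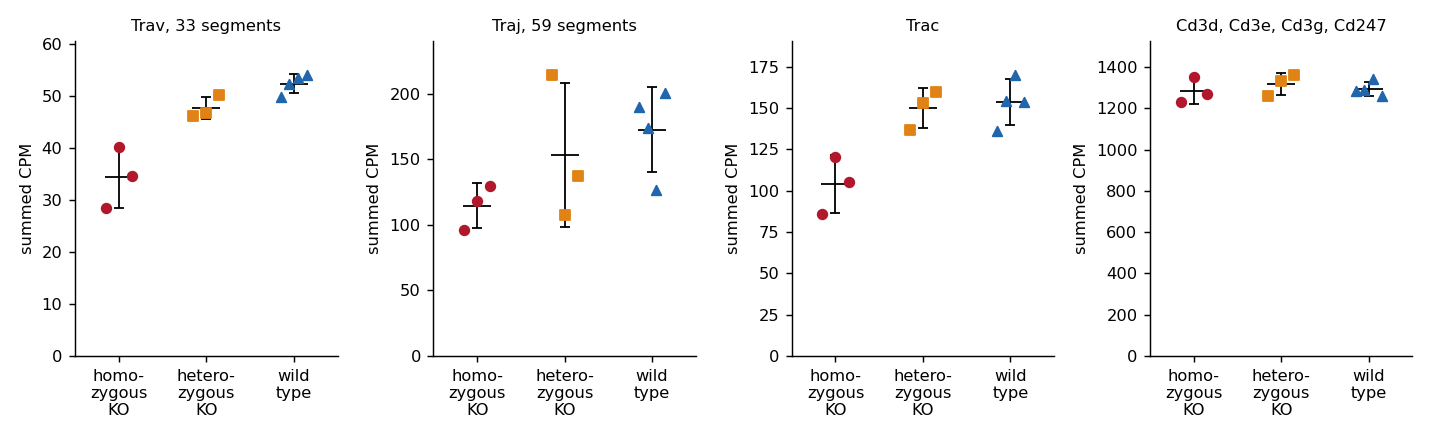
Summed CPM (vertical axis from 0, scaled by TMM) of the 33 Trav rows, the 59 Traj rows, Trac and the 4 CD3 genes in each library, by genotype (horizontal axis); points are libraries, bars the mean ± SD (n = 3, 3 and 4). Trav and Trac are lower in all homozygous KO libraries, Traj sums overlap, and CD3 sums lie between 1232 and 1361 CPM in all 10 libraries.

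No CD3 gene was called in any comparison. The CD3 genes, which form the signalling part of the receptor, summed to 1285 ± 62.4, 1318 ± 53.3 and 1295 ± 33.8 CPM in the 3 groups. Among 23 tested genes of a list for the receptor and its recombination, 4 were called higher and 2 lower in homozygous KO against wild type, beside 12.5% and 13.2% of all tested rows, and none between heterozygous KO and wild type. Higher were Trbc1 (log2 fold change 0.45, SE 0.05) and Trbc2 (0.30, SE 0.07), the constant genes of the beta chain, Bcl2l1 (0.35, SE 0.07), whose product Bcl-xL keeps DP thymocytes alive, and Ctcf (0.38, SE 0.06), which organises chromatin loops in antigen receptor loci. Lower were Rag1 (−0.85, SE 0.07), which encodes a subunit of the recombinase, and Dntt (−0.46, SE 0.14), whose product adds bases at the joins, while Rag2 had −0.54 (SE 0.21, adjusted p = 0.0782).

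Beside the locus, of 6 neighbours, Sall2, Mettl3 and Tox4 on the V side and Dad1, Abhd4 and Oxa1l beyond Trac, only Oxa1l was called, with a log2 fold change of 0.19 (SE 0.05, adjusted p = 0.0163) in homozygous KO against wild type. In that comparison 12.5% of all tested rows were called higher and 13.2% lower. Beta-chain V rows summed to 515 ± 25.0, 528 ± 36.6 and 510 ± 9.65 CPM. Rows of the delta genes, which lie between Trav and Traj and are deleted when an alpha gene is joined, summed to 38.0, 32.0 and 35.05 CPM in homozygous KO, 33.2, 32.4 and 31.0 CPM in heterozygous KO and 32.0, 31.0, 23.7 and 29.4 CPM in wild type.

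Markers of thymocyte stages were read beside the locus, where 12.5% of all tested rows were called higher and 13.2% lower in homozygous KO against wild type. In bulk tissue, fewer cells of a stage and less RNA per cell cannot be told apart. Of 6 markers of mature single-positive thymocytes, which carry selected receptors, 4 were called lower in homozygous KO against wild type (Ccr7, S1pr1, Klf2 and Itgb7, with log2 fold changes of −2.96, −2.12, −1.58 and −1.80), and Slamf6 (−0.01) was not. Their summed level was 278 to 327 CPM in homozygous KO and 376 to 493 CPM in wild type. Of 8 DP markers 2 were higher (Cd8a and Arpp21) and 2 lower (Rag1 and Dntt), with sums of 7982 to 8307 and 9678 to 11020 CPM, in which Rag1 alone averaged 3491 and 6300 CPM. Of 6 double-negative markers 1 was higher (Notch3) and 3 lower (Kit, Cd44 and Il7r), with overlapping sums of 489 to 1076 and 454 to 630 CPM. None of these markers was at 0, none was called in heterozygous KO against wild type, and their part in the shift along the locus was not tested.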

How the data were processed

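The authors deposited 1 table of raw counts, whole numbers per Ensembl gene with no coordinates, for 10 mouse thymus libraries. The submitters' processing notes list CASAVA, STAR 2.4.1d, HTSeq 0.6.1p1, NCBIM37 and mm9, while the study's methods name another aligner for its RNA sequencing. The counting mode, the strand setting and the annotation release are not given in the sources used here, so overlapping and antisense transcription cannot be told apart. Columns were matched to samples by animal and library number (2 wild-type columns also carry the word het, and the group of the title was kept), and 0 columns lacked a sample. Symbols came from a names table (30204 of 34467 Ensembl identifiers matched), and places and sequences from GENCODE M21 on GRCm38.

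Rows that passed filterByExpr (19511 of 35375) were scaled by TMM and tested in edgeR 4.0.16 (R 4.3.3) with the quasi-likelihood test in 1 fit of 3 groups over 10 libraries, with Benjamini-Hochberg adjustment over all tested rows and a threshold of 0.05. The SE is the log2 fold change divided by the square root of F. The common biological coefficient of variation was 0.207. Trac alone was also compared by an exact two-sided permutation test. Library totals ran from 39833850 to 122380785 counts. No pair of libraries of a group agreed within sampling noise (chi-square per degree of freedom 12.6 to 108). In counts simulated for homozygous KO against wild type (19194 genes), 73% of genes changed 2-fold and 97% of those changed 4-fold were called. The changed genes were drawn only from rows with a mean above 1 CPM, so these shares do not cover segments with lower levels.

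The members and lists were chosen with earlier results of these data known. Named members are Trac, those of the invariant receptors (Trav11 and Traj18, Trav1 and Traj33), the 3 tested members of each array nearest to and the 3 farthest from the other, and by values the 5 largest rises and falls per comparison among called members that did not overlap and whose mean log2 CPM was not below 0. Other segments named in the text are outside this rule and were chosen after their values were seen. Among them are Trav5-1, Trav8-1, Trav13d-1, Trav16, Trav16d-dv11, Trav8-2, Trav8n-2, Trav8d-2, Traj14 and Traj8. Alternatives covered scaling, the filter, DESeq2, covariates, blocks, the samples in the fit, each library left out, and other divisions of the arrays. Some listed genes and sequences are not reported here.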

Additional observations from a re-analysis of the deposited data

Results flagged for a closer look

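Of 33 values checked for a library that stands apart within a group of 4, 4 did so in wild type, where chance alone flags about 1 in 20 (by Dixon's ratio, the gap to the nearest library over the range of the group). Wild type replicate 1 had the highest Trav18 level, 2.19 CPM, with a ratio of 0.833. Wild type replicate 3 stood apart in how Trav counts were divided: it had 9.82% in the 5′ section (ratio 0.902), 21.1% in the middle section (0.837) and 69.1% in the 3′ section (0.885). These 3 shares add up to the whole and are not independent.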

How the results depend on the processing

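The values below moved past the set limits under the named setting, and the cause was not tested. Scaled to the summed Trav, Traj and Trac counts, medians against wild type in homozygous KO were −1.29 (Trav) and −0.077 (Traj), with Trac at 0.010, Traj33 at 0.25 and Trav20 at 0.38. Against heterozygous KO the same scaling gave −1.27, 0.17, −0.080 for Trac (adjusted p = 0.701) and 0.28 for Traj33, and Trac in heterozygous KO against wild type was 0.090. With an Xist term Trav20 was 0.081 in homozygous KO and Trac 0.070 in heterozygous KO against wild type. With the wild types of 1 wt word, 13 Traj rows were called in homozygous KO (beside 2670 of 19855 tested rows) and Trav20 was at 0.086. With those of 2 wt words Trac in heterozygous KO was 0.045. A fit of 2 groups called 10 Traj rows between homozygous and heterozygous KO, beside 2553 of 18858 tested rows in either direction. The proximal Trav share was 7.09 and 8.43 points higher than in wild type and heterozygous KO with the array divided in 2, and 30.8 and 35.9 points with each segment weighted equally.

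With 1 library left out, ranges in homozygous KO against wild type were −2.08 to −1.70 for the Trav median and −0.46 to 0.19 for Trav20 (0.17 without homozygous KO replicate 1, 0.19 without wild type replicate 2). In heterozygous KO against wild type they were −0.18 to 0.0036 for the Trav median (highest without wild type replicate 3), −0.52 to 0.049 for the Traj median (highest without heterozygous KO replicate 2) and −0.089 to 0.035 for Trac (0.035 without heterozygous KO replicate 1, 0.017 without wild type replicate 3). Between homozygous and heterozygous KO, 8 to 22 Traj rows were called, beside 2407 of 19878 and 2391 of 19938 tested rows in those fits. The other ranges of this comparison were −1.99 to −1.58 (Trav median), −0.62 to 0.041 (Traj median), −0.56 to 0.24 (Traj33), −0.76 to 0.27 (Trav20) and −0.084 to 0.39 (Traj61). The highest Traj median and Traj33 values came without heterozygous KO replicate 1, the highest Trav20 value without replicate 3 of that group, and the lowest Traj61 value without homozygous KO replicate 1.

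With the replicate block, 12 in place of 21 Traj rows were called between homozygous and heterozygous KO, and 23 Traj and 21 Trav rows against wild type. Of all 19511 tested rows, 3293 and 4934 were called in these 2 comparisons. The numbers share no stated source, and correlations of same-numbered libraries ran from −0.0906 to 0.200. Of 802 alternative values for named members, 743 kept direction and side of the threshold, 32 lost the call, 17 gained one and 10 reversed.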
